A study of Rattus norvegicus with 10 samples.

Results

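RNA of the left ventricle was measured on 5 arrays of rats that had received LacZ, a control cargo that encodes beta-galactosidase of bacteria, and these arrays are described alone, as a picture of which genes gave strong, weak or unsteady signals. They are 5 of the 10 arrays of the series. The other 5 carry ventricles given GATA-4 and enter no comparison here. All animals were male Sprague-Dawley rats of 250 to 300.0 g, and tissue was taken on day 3 after gene transfer. No untreated heart is among the arrays used, so every value describes a ventricle that had already undergone gene transfer. How and where the gene was delivered is not stated in the sources used here. The design text counts 5 samples a group, but the labels tie no array to an animal, so the spread between arrays may be partly technical. Arrays were assigned by their source label, since the titles name GATA-4 on all of them, and the numbers 1 to 5 only name them.

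Each value is the log2 of a probe set's signal after quantile normalization, and the probe set with the strongest mean signal stands for its gene. This gave 14217 genes from 20826 probe sets annotated to a single gene. A signal depends on the amount of transcript and also on how well its probes bind, and signals flatten near the top of the scale. The order of genes by signal is therefore a rank of brightness and only a rough one of transcript number. In bulk tissue, fewer cells of a type and less RNA per cell cannot be told apart.

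The ventricular wall works without pause. Its muscle cells are filled with sarcomeres, in which myosin pulls on actin under the control of calcium, troponin and tropomyosin. Calcium is released from and pumped back into the sarcoplasmic reticulum at each beat. The ATP for both comes almost wholly from mitochondria, fed mainly by fatty acids, lactate, glucose and ketone bodies. Fibroblasts, endothelial cells, pericytes and macrophages lie between the muscle cells.

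The arrays were alike across genes. Pearson's r between pairs of arrays ran from 0.965 to 0.969 over all genes and from 0.981 to 0.987 over the genes above background. These are correlations across genes, which are not independent replicates. The trimmed mean signal as deposited was 249 to 263 on 4 arrays and 314 on LacZ array 2. The 3' to 5' signal ratio of the GAPDH control, a measure of RNA integrity and labelling, was 2.11, 1.55, 1.60, 1.29 and 2.46 on LacZ arrays 1 to 5. It was thus lowest on array 4 and highest on array 5. The same ratio of the beta-actin control was 2.62, 2.22, 2.30, 2.64 and 2.97. By that control array 2 was lowest and array 5 highest, so the controls agree on array 5 and not on array 4. The Y-linked Eif2s3y at 10.28 ± 0.12 and Uty at 8.20 ± 0.15 (SD, n = 5) lay above background and Xist, the transcript of the inactive X chromosome, at 2.76 ± 1.13 did not, as the male label states. The Y-linked testis gene Sry was at 2.27 ± 0.68. All values below are mean log2 signals ± SD over the 5 arrays unless another quantity is named.

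No detection calls were used, so background was taken from genes that a heart is not known to need for its work. These were 41 receptors for smell, pheromones, taste and trace amines, whose levels had a median of 3.23 and ran from 1.05 to 6.87. Their 95th percentile, 4.83, which is a signal of 28.5 on the linear scale, was used as the background level. Olr59 at 6.87 ± 0.22 and Or7a37 at 5.55 ± 0.41 were the receptor genes above it. Of the 14217 genes, 11070 (77.9%) lay above the level and 3147 at or below it. On single arrays, 10517 genes were above it on all 5, 2204 on none and 1496 on some. Just outside lay Tenm3, Ndnf and Or6f2 and just inside Blk, Msln and Samd10, all at 4.83 to 2 decimals. A call of "above background" near this value thus separates genes that do not differ. Of the 4525 genes with several probe sets, 1675 had probe sets on both sides of the level, so a gene is called below only where its brightest probe set was.

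The level depends on its reference. With its 99th percentile, 6.34, in place of the 95th, 4972 genes lay at or below it in place of 3147. A search by symbol also picked up Olr1, the receptor for oxidized low-density lipoprotein, which is not a smell receptor and was taken out after the values had been seen. With Olr1 kept in, the level was 5.51 and 10287 genes lay above it.

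**Figure D1:**
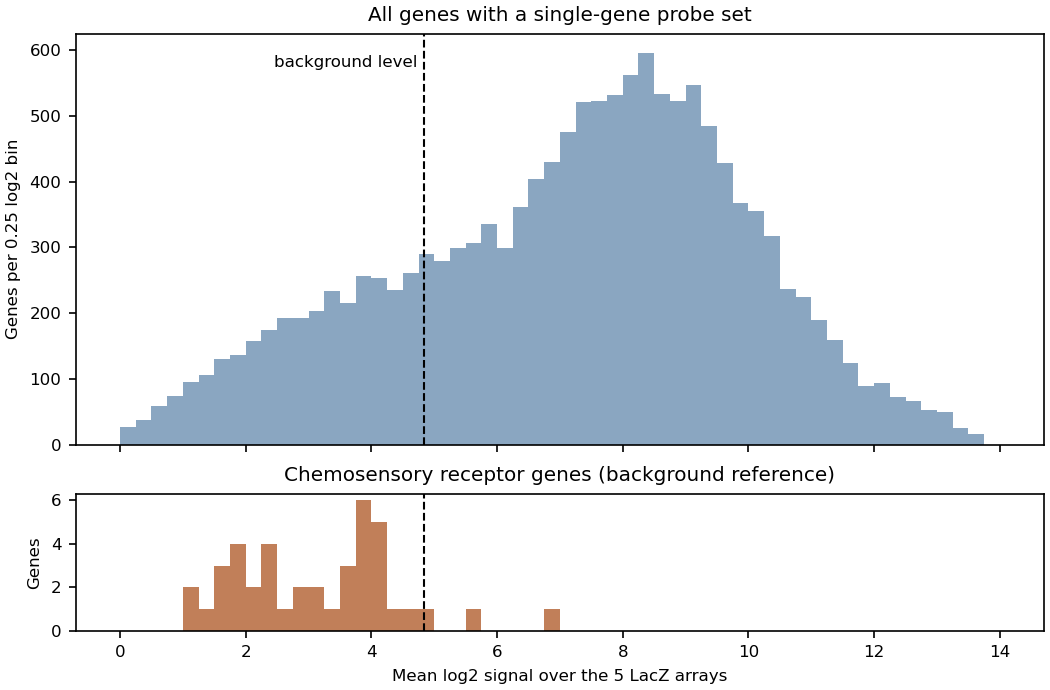
Distribution of the mean log2 signal of the 14217 genes over the 5 LacZ arrays, in bins of 0.25, and below it that of the 41 chemosensory receptor genes, with the background level of 4.83 as a dashed line. The median gene lay at 7.53, and 93 genes lay above 13.

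The brightest genes of the control ventricle were those of contraction, calcium cycling and mitochondrial ATP production. The median gene had a level of 7.53, with quartiles at 5.21 and 9.15, while 380 genes lay above 12 and 93 above 13. The 20 brightest, in order of their means, were Idh2, Myh7, Atp2a2, Tnnt2, COX2, Ldhb, Atp5f1b, Atp5f1c, Tpm1, COX1, Pln, Aldoa, Myh6, Rps29, Ckmt2, Acta1, Cryab, Myl3, Tnnc1 and Slc25a3. They spanned 0.23 log2 units, from 13.71 to 13.48. Of the 19 pairs of neighbours in that order, 1 differed beyond the SD of its members, so the order within the 20 is not resolved. Of the 100 brightest genes, 82 were among the 100 brightest on every array, and the lowest of the 100 had a level of 12.97. Of the 100 brightest probe sets 74 were annotated to 1 gene, 18 to several and 8 to none, so some bright transcripts carry no name here.

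Idh2, the mitochondrial NADP-dependent isocitrate dehydrogenase, read 13.73 on LacZ arrays 1 to 4 and 13.65 on array 5. The first value is the highest that the normalization gives, so Idh2 was the brightest probe set on 4 of the 5 arrays and has no measured distance to a still brighter one. Myh7, the slow beta-myosin heavy chain, read 13.70, 13.68, 13.70, 13.63 and 13.73. Myh6, the fast alpha-myosin heavy chain of the adult rodent ventricle, read 13.51, 13.54, 13.54, 13.53 and 13.57. Both chains stood near the top of the scale on every array, where the probe sets respond least, so the 2 signals do not give the ratio of the isoforms. Atp2a2, the calcium pump of the sarcoplasmic reticulum, read 13.65, 13.66, 13.68, 13.66 and 13.70. Tnnt2, cardiac troponin T, read 13.66, 13.70, 13.66, 13.65 and 13.66. COX2, the mitochondria-encoded cytochrome oxidase subunit, read 13.60, 13.65, 13.62, 13.70 and 13.68. No array was low or high for all of these genes.

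Sorted by role, the 100 brightest genes held 16 of the sarcomere and Z-disc and 34 of the respiratory chain and ATP synthase. Those 34 were 8 of complex I, 3 of complex II, 5 of complex III, 8 of complex IV, 8 of the ATP synthase and 2 encoded by mitochondrial DNA. A further 7 belonged to the Krebs cycle and ketone use, 5 to fatty acid uptake and oxidation, 5 to creatine kinase and mitochondrial carriers, 3 to glycolysis, 4 to calcium handling and 9 to the cytosolic ribosome. Translation gave Eef1a1, the chaperone list gave Hspb6, and oxygen binding gave myoglobin (Mb). Cryab, a small heat shock protein, is counted among the 16 of the sarcomere and Z-disc. The other 14 were Acta1, B2m, Chchd10, Clu, Col3a1, Sparc, Mgp, Phyh, Nnt, Gnas, Nppa, Ndrg2, Itm2b and Crip2. Among them are matrix genes (Col3a1, Sparc, Mgp), the skeletal alpha-actin gene Acta1, which rodent heart also expresses, and Nppa, which encodes atrial natriuretic peptide. Cardiac alpha-actin, GAPDH, beta-actin and the sodium pump's main alpha subunit were not analysed here, as no single-gene probe set was matched to them. The SD of the 100 brightest genes had a median of 0.041 and reached 0.20 for Nppa.

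**Figure D2:**
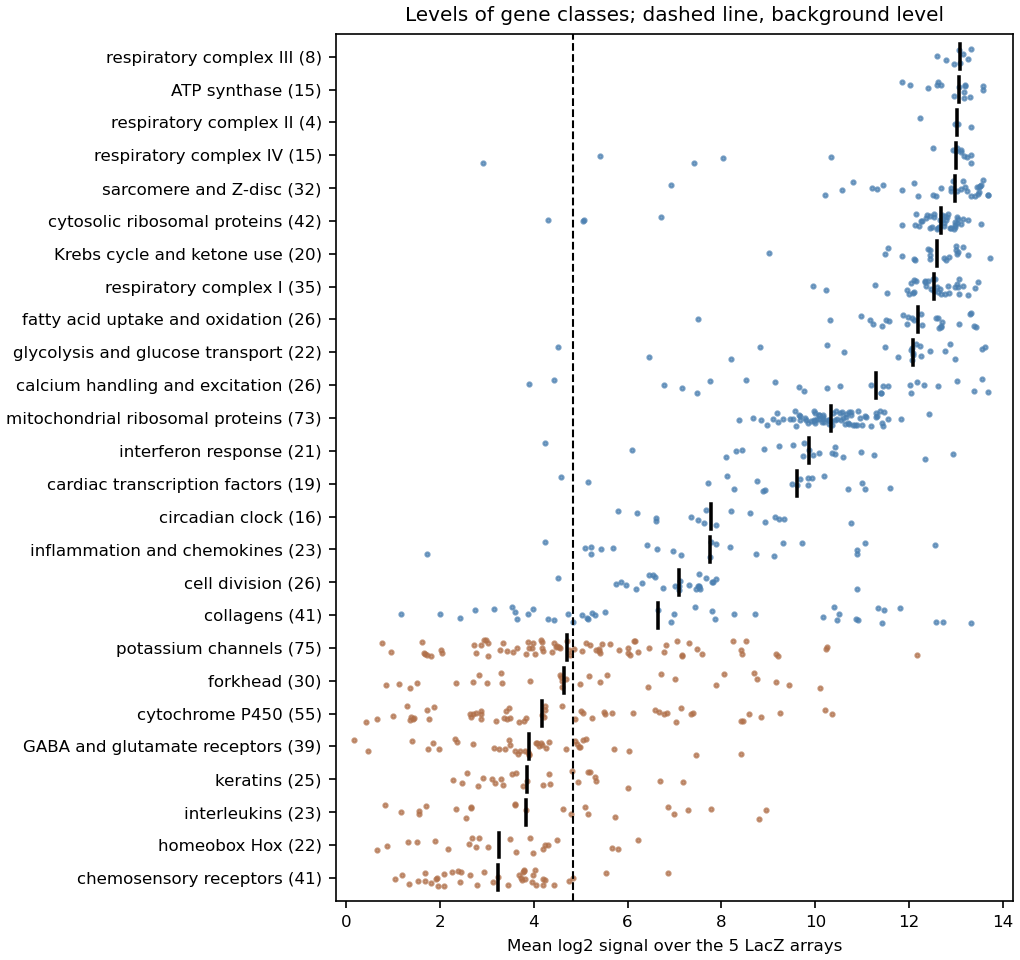
Mean log2 signals of the members of each gene class over the 5 LacZ arrays, with a point for each gene, a bar at the class median and the background level of 4.83 as a dashed line. Sarcomere, respiratory chain and Krebs cycle genes sit at the top, and smell receptors, Hox genes, GABA and glutamate receptors and keratins have their medians below the line.

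Promoter sequences of genes on which the description turns are shown because they set a bright muscle gene, a bright hormone gene and an inhibitory troponin beside 3 genes whose signals were unsteady between arrays. Each is the 150 bases before the gene's start in RefSeq's annotation of rat assembly GRCr8, read 5′ to 3′ on the gene's own strand. Acta1 lies at chr19:68784195-68784344 (minus strand), Nppa at chr5:163712034-163712183 (plus), Tnni3 at chr1:78342421-78342570 (plus), S100a9 at chr2:178490623-178490772 (minus), Ccl7 at chr10:67513945-67514094 (plus) and Reg3g at chr4:112484739-112484888 (minus). Capitals mark a TATA box (TATAAA), a motif of GATA factors (AGATAA) or a CArG box, the binding motif of serum response factor. A GATA motif on the opposite strand appears as TTATCT in the run of the gene.
Acta1: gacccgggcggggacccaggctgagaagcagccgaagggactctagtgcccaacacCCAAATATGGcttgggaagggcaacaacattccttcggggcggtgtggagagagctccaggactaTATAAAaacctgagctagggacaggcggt
Nppa: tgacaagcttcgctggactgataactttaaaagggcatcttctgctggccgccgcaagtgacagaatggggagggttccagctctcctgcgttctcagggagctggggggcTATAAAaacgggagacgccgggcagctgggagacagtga
Tnni3: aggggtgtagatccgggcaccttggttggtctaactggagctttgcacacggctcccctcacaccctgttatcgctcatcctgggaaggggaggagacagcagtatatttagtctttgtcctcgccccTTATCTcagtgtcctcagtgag
S100a9: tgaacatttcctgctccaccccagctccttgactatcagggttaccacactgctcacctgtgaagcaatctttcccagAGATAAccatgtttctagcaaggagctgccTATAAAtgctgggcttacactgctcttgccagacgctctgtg
Ccl7: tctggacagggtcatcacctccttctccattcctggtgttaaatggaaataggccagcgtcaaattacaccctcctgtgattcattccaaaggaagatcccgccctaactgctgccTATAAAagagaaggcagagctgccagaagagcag
Reg3g: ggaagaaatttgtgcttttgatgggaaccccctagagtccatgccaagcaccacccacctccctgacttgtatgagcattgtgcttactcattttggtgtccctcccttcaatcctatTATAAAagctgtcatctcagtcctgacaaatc

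The Acta1 window held a CArG box at -94 and a TATA box at -29, counted from the gene's start to the first base of the motif. The Nppa, S100a9, Ccl7 and Reg3g windows each held a TATA box, at -39, -42, -34 and -32. AGATAA, the only GATA string searched, lay at -22 in Tnni3, on the other strand, and at -72 in S100a9. Other strings with GATA, such as TGATAA in the Nppa window, were neither searched nor marked, so an unmarked window is not one without a GATA motif. In a window of 250 bases searched on both strands, TATAAA was present in 13.4% of the 82 promoters matched among the 100 brightest genes, in 6.64% of the 9227 of genes above background, in 11.5% of the 304 of genes with a wide spread and in 13.1% of all 27457 promoters. The motif of MEF2 factors, CTANNNNTAG, was present in 7.32% of promoters of the 100 brightest genes, 2.79% of genes above background and 3.43% of all. Among the 100 brightest genes it lay at -53 in Myoz2, -50 in Cox6a2, -151 in Ckmt2, -166 in Ttn, -121 in Cox5b and -38 in Ndrg2. The CArG box was present in 4.88%, 1.22% and 1.50% of the same sets. Besides Acta1, it lay at -97 in Myl3, -95 in Fhl2 and -32 in Ldha. AGATAA was present in 11%, 5.77% and 10.0%. With 82 promoters, 1 promoter more or less moves a share by over 1 percentage point. A match is a string of letters in a window and shows no binding.

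All 32 measured sarcomere and Z-disc genes lay above background, with a class median of 12.97. The share above background over all genes, 77.9%, is to be set beside this and every class count below. The myosin light chains Myl3 and Myl2 stood at 13.49 ± 0.03 and 13.47 ± 0.06, the Z-disc protein Myoz2 at 13.41 ± 0.04 and Csrp3, a muscle LIM protein, at 13.31 ± 0.08. The giant spring titin (Ttn) was at 13.19 ± 0.03, and Ankrd1, a stretch-responsive ankyrin repeat protein, at 13.23 ± 0.07. The dimmest member was Myot, the Z-disc protein myotilin, at 6.93 ± 0.26. No member of the class had an SD of 0.5 or more.

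Within the thin filament, the cardiac form of each troponin was bright and the skeletal forms were near or below background. Cardiac troponin I (Tnni3) read 13.46, 13.42, 13.51, 13.46 and 13.35 on LacZ arrays 1 to 5, while Tnni1, the slow skeletal and fetal form, was at 6.05 ± 0.26 and the fast form Tnni2 at 5.39 ± 0.37. Tnnt2 was at 13.67 ± 0.02, against 5.35 ± 0.36 for Tnnt1 and 5.06 ± 0.46 for Tnnt3. Tnnc1, shared by heart and slow muscle, was at 13.49 ± 0.05, and the fast Tnnc2 at 4.15 ± 0.63 lay below background. These levels come from different probe sets, each with its own response, so they place each form relative to background and do not measure the ratio of isoforms. Tropomyosin differed: Tpm1 was at 13.57 ± 0.03, and Tpm4, Tpm3 and Tpm2 were all well above background at 11.73, 10.39 and 9.92.

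Among the other myosin heavy chains, the non-muscle forms Myh9 and Myh10 were at 10.14 ± 0.12 and 8.97 ± 0.15, and smooth muscle Myh11 at 8.99 ± 0.22. The fast skeletal chains Myh2, Myh8 and Myh4 and the embryonic chain Myh3 were below background, at 3.88, 3.35, 2.64 and 0.74. Myh1, annotated as another fast skeletal chain, was an exception at 12.78 ± 0.06. It had 5 probe sets, from 9.63 to 12.78, and near-identical myosin genes may share their sequence, so that value is uncertain. The atrial light chains Myl4 and Myl7 were at 7.23 ± 0.75 and 6.58 ± 0.94.

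**Figure D3:**
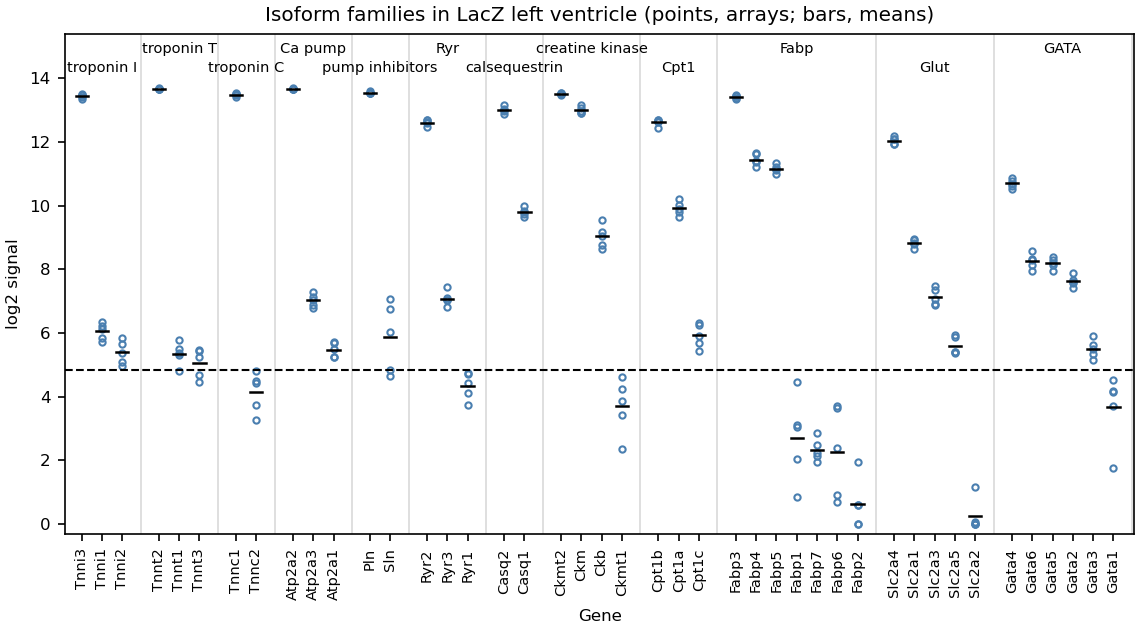
Log2 signals of isoform families of contraction, calcium cycling, metabolism and GATA factors, with a point for each of the 5 LacZ arrays, a bar at the mean and the background level of 4.83 as a dashed line. Troponins I, T and C each show a cardiac form above 13 and skeletal forms at 6.05 or lower.

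Calcium cycling and excitation genes were bright as a class, with 24 of 26 above background and a median of 11.29. Pln, the phospholamban that restrains the calcium pump, stood at 13.54 ± 0.03, and its atrial relative Sln, sarcolipin, at 5.87 ± 1.10. The calcium pumps Atp2a3 and Atp2a1, forms of non-muscle and fast skeletal cells, were at 7.02 and 5.48. The cardiac release channel Ryr2 was at 12.61 ± 0.09, Ryr3 at 7.08 ± 0.23 and the skeletal Ryr1 below background at 4.35 ± 0.42. The calcium-binding calsequestrins Casq2 and Casq1 were at 13.01 ± 0.10 and 9.80 ± 0.13, so here the skeletal form was also well above background. The sodium-calcium exchanger Slc8a1 was at 11.41 ± 0.09 and Cacna1c, the pore of the L-type calcium channel, at 9.76 ± 0.20.

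Potassium channel genes were split around the background level. Of 75 measured, 35 lay above background, and their median was 4.70. Kcnip2, an auxiliary subunit of the transient outward current, was the brightest at 12.16 ± 0.11, and the pores of ATP-sensitive channels, Kcnj11 and Kcnj8, were at 10.24 ± 0.11 and 9.17 ± 0.14, while the pores that Kcnip2 accompanies, Kcnd3 and Kcnd2, were at 7.49 ± 0.15 and 7.16 ± 0.19. Kcnj12 at 4.43 ± 0.21 and Kcnj2 at 3.90 ± 0.96, which encode pores of the inward rectifier that holds the resting potential, were not above background on these probe sets. Among connexins, Gja1 of the ventricular gap junction was at 13.38 ± 0.07, the vascular and conduction forms Gja4, Gjc1 and Gja5 were at 8.45, 8.28 and 7.75, and Gjb2 lay at the background level itself, at 4.83 ± 0.56.

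The respiratory chain was bright throughout. All 35 complex I genes, all 4 of complex II, all 8 of complex III, 14 of 15 of complex IV and all 15 of the ATP synthase lay above background. The medians were 12.53 for complex I, 13.01 for complex II, 13.07 for complex III and 13.06 for the ATP synthase, and none of these genes above background had an SD of 0.5 or more. Sdha, the catalytic subunit of succinate dehydrogenase, was at 13.31 ± 0.08, Ndufb9 of complex I at 13.46 ± 0.02 and Atp5f1b, the catalytic beta subunit of ATP synthase, at 13.57 ± 0.04. The complex IV gene below background was Cox7b2 at 2.93. Of the paired complex IV isoforms, muscle Cox6a2 was at 13.32 ± 0.02 and the general Cox6a1 at 12.51 ± 0.06, muscle Cox8b at 13.01 and general Cox8a at 12.94, and Cox4i1 at 13.33 ± 0.02 with Cox4i2, a form known from lung, at 7.41 ± 0.32.

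Genes that feed the chain followed close behind. All 20 Krebs cycle and ketone genes were above background with a median of 12.59, among them Oxct1, the enzyme that activates ketone bodies, at 13.24 ± 0.04. The ketone enzyme Bdh1 was the dimmest of that class at 9.01 ± 0.27. All 26 genes of fatty acid uptake and oxidation were above background with a median of 12.18. Fabp3, the heart fatty acid binding protein, was at 13.42 ± 0.05, the dehydrogenase Acadl at 13.38 ± 0.02 and lipoprotein lipase (Lpl) at 13.30 ± 0.03. The relatives Fabp1, Fabp7, Fabp6 and Fabp2 of liver, brain and gut were below background, from 0.63 to 2.71. Carnitine palmitoyltransferase, which admits fatty acids to mitochondria, was at 12.63 ± 0.10 in its muscle form Cpt1b, 9.91 ± 0.21 in the liver form Cpt1a and 5.92 ± 0.37 in the brain form Cpt1c.

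Of 22 genes of glycolysis and glucose transport, 21 were above background, with a median of 12.07. The heart lactate dehydrogenase Ldhb was at 13.62 ± 0.02, the muscle form Ldha at 12.97 ± 0.03 and the testis form Ldhc at 2.52 ± 1.30, below background. Glucose transport showed the same layout, with the insulin-responsive Slc2a4 at 12.05 ± 0.10, Slc2a1 at 8.83 ± 0.11, Slc2a3 at 7.14 ± 0.26 and the liver and islet form Slc2a2 at 0.24 ± 0.52. Of the hexokinases, the general form Hk1 was at 10.60 ± 0.22 and Hk2, the form of insulin-responsive muscle, at 6.45 ± 0.20 on its single probe set. Of the pyruvate dehydrogenase kinases, which turn off glucose oxidation, Pdk2, Pdk1 and Pdk4 were at 11.90, 11.16 and 10.96 and Pdk3 at 7.15. The high-energy phosphate shuttle was bright, with mitochondrial Ckmt2 at 13.52 ± 0.03, muscle Ckm at 13.01 ± 0.11 and brain-type Ckb at 9.04 ± 0.35.

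Protein synthesis and turnover genes were bright as well. Of 42 cytosolic ribosomal protein genes 41 were above background, with a median of 12.67. The low tail of that class, Rpl39 at 6.71, Rpl28 at 5.06, Rpl30 at 5.05 and Rps13 at 4.30, each rested on a probe set far below its relatives. Ribosomal proteins are known to be needed together in every cell, so a level at or below background is a statement about a probe set and not that a gene is silent. All 73 mitochondrial ribosomal protein genes (median 10.34) and all 36 proteasome genes (median 10.77) were above background. All 17 genes of the chaperone list were as well, led by the small heat shock proteins Hspb6 at 13.20 ± 0.03 and Hspb7 at 12.81 ± 0.12, while the heat-inducible Hspa1a was at 7.86 ± 0.13. Cryab, a small heat shock protein counted here with the sarcomere and Z-disc genes, was brighter at 13.51 ± 0.02.

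Transcription factors of the heart were well above background but below the structural genes. Of 19 measured, 18 were above the level, with a median of 9.61. Tead1, which works on muscle and growth genes, was at 11.58 ± 0.19, Mef2a at 11.05 ± 0.06, Hopx at 10.99 ± 0.24 and Nkx2-5 at 9.84 ± 0.41. Gata4, the gene transferred in the other arm, read 10.54, 10.88, 10.67, 10.77 and 10.63 on its brighter probe set, which gives 10.70 ± 0.13. Its other probe set averaged 4.44, below background. Among its relatives, Gata6, Gata5 and Gata2 were at 8.26 ± 0.24, 8.19 ± 0.17 and 7.63 ± 0.17, Gata3 at 5.50 ± 0.28, and Gata1 of blood cells below background at 3.66 ± 1.09. Hand1 at 4.58 ± 1.42 was the cardiac factor below the level, and Ppara, a regulator of fatty acid oxidation, lay just above it at 5.15 ± 0.55.

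The natriuretic peptide genes, whose products relax vessels and promote salt loss, were the brightest hormone genes. Nppa read 13.22, 13.24, 12.89, 13.14 and 12.81 and Nppb read 12.20, 12.40, 12.30, 11.96 and 12.16. Nppa was lowest on LacZ arrays 5 and 3, and Nppb on array 4, so the 2 did not share their low array. Edn1, the precursor of the vasoconstrictor endothelin, was at 5.60 ± 0.31, and Agt, the angiotensinogen made chiefly by liver, lay below background at 3.15 ± 0.28.

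All 16 clock genes were above background, with a median of 7.78. Nr1d2, a repressor of the clock, was at 10.77 ± 0.12, the output factor Dbp at 9.23 ± 0.18 and Bmal1, the activator, at 7.36 ± 0.18. Of the 27 immediate-early and stress genes, 25 were above background, led by Jund at 11.55 ± 0.15 and Klf2, a factor of endothelium under flow, at 11.02 ± 0.19. Fos read 6.72, 6.50, 6.58, 6.46 and 7.72 and Myc 6.22, 6.32, 6.46, 5.72 and 7.20. Both were highest on LacZ array 5. Of 26 genes of cell division 25 were above background at a median of 7.10, with Pcna of the replication fork at 10.89 ± 0.11 and the proliferation marker Mki67 at 7.50 ± 0.15.

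The labelled tissue was set against marker lists of the cell types a piece of ventricle could hold. Over all genes, 77.9% lay above background, with a median level of 7.53. All 13 cardiomyocyte markers were above background, with a median of 13.47. Of 6 markers of the conduction system, 1 was above background, Tbx3 at 5.69 ± 0.11, and the pacemaker channel Hcn4 was at 1.48 ± 0.33. All 9 atrial markers were above background but with a median of 7.23, and several of them, such as Nr2f2 and Tbx5, are not exclusive to atria. All 12 fibroblast markers were above it with a median of 12.36, led by the collagen Col3a1 at 13.32 ± 0.06 and the proteoglycan decorin (Dcn) at 12.95 ± 0.06. All 13 endothelial markers were above it with a median of 9.96, led by the water channel Aqp1 at 11.81 ± 0.10. All 11 smooth muscle and pericyte markers were above it with a median of 8.99, where the brightest, desmin (Des) at 12.90, is also a cardiomyocyte gene and the pericyte regulator Rgs5 was next at 10.54 ± 0.07.

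Immune lists differed widely. All 15 macrophage and monocyte markers were above background with a median of 9.40, led by lysozyme (Lyz2) at 12.74 ± 0.07 and the growth factor receptor Csf1r at 10.51 ± 0.15. All 15 T and NK cell markers were above it by their means, 11 of them on all 5 arrays. Their median of 6.41 was below the 7.53 of all genes. Their signaling chains Il2rg and Lck were at 9.79 and 8.14, but the T cell receptor partners Cd3d and Cd3e were at 5.16 ± 0.89 and 4.94 ± 0.75, close to the level. Of 9 neutrophil markers 4 were above background: S100a9 at 8.17 ± 1.06, Csf3r at 6.43 ± 0.29, S100a8 at 6.41 ± 1.19 and Il1r2 at 5.23 ± 0.69. Granule and receptor genes of the same list, Np4, Cxcr2, Mmp8, Defa5 and Camp, were below it. B cell, mast cell, nerve and epicardial lists were split around the level, with 4 of 6, 5 of 9, 6 of 13 and 6 of 9 above it. Of 10 adipocyte markers 4 were above it, Fabp4 at 11.45, which is also an endothelial marker here, the lipases Pnpla2 and Lipe at 11.04 and 7.47 and Cfd, adipsin, at 8.71. The other 6 were below it, among them the adipokines Adipoq at 2.37 ± 0.98 and Lep at 0.91 ± 0.83. Of 6 erythroid markers 3 were above background, Hbb, Alas2 at 8.33 and Slc4a1 at 6.92, and Hemgn, Ahsp and Epb42 were below it at 4.71, 3.19 and 2.20. Hbb, beta-globin, was the brightest, with 12.30, 12.10, 12.07, 11.65 and 11.88 on LacZ arrays 1 to 5.

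Genes of the interferon response and of antigen presentation gave strong signals in the control ventricle. Of 21 interferon genes 20 were above background with a median of 9.86. Ifi27 read 12.93, 13.10, 12.93, 13.06 and 12.68, and Irf7, the master factor of the response, 12.23, 12.49, 12.19, 12.68 and 12.13. Both were lowest on LacZ array 5, but the list was lowest on array 3. Its mean deviation over the 20 genes above background was 0.141, 0.147, -0.218, 0.091 and -0.161 on LacZ arrays 1 to 5. Ifit1 at 4.24 ± 0.67 was the member below background. All 16 genes of the antigen presentation list were above it, with beta-2 microglobulin (B2m), the light chain of class I molecules, at 13.48 ± 0.01 and the class II invariant chain Cd74 at 12.71 ± 0.08. The dimmest member, RT1-Bb, was at 6.57 ± 0.34, and its other probe set was unsteady and below background, at 4.70 ± 3.97. Without untreated hearts, no part of these levels can be assigned to gene transfer.

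The dim end of the scale held the gene families of other organs and of early patterning. Of 82 genes typical of other organs 14 were above background, and their median was 3.07. None of the 10 testis genes was above it. The exceptions included Ttr, the thyroid hormone carrier of liver, at 9.05 ± 0.09, Napsa of lung at 7.65 ± 0.19 and the liver P450 Cyp2e1 at 7.35 ± 0.55. Albumin (Alb) was at 3.92 ± 1.01.

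Of 22 Hox genes, which set position along the body axis, 3 were above background, Hoxb3 at 6.22 ± 0.19, Hoxb2 at 5.80 ± 0.24 and Hoxd8 at 5.67 ± 0.50, with a class median of 3.26. Of 25 keratins 8 were above it, led by Krt10 at 7.17 ± 0.12. Of 39 GABA and glutamate receptor genes 10 were above it, led by the AMPA receptor subunit Gria3 at 8.43 ± 0.26. Of 55 cytochrome P450 genes 23 were above it, with Cyp20a1 at 10.35 ± 0.06 and the sterol hydroxylase Cyp27a1 at 10.21 ± 0.20 well clear of the class median of 4.17. The brightest Hox gene and the brightest keratin lay below the median of all genes, 7.53, while Gria3, Cyp20a1 and Cyp27a1 lay above it.

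Secreted signals were mixed. Of 23 interleukins 9 were above background, led by the alarmin Il33 at 8.96 ± 0.15 and Il18 at 8.80 ± 0.25, while Il2, Il11 and Il10 lay at 1.55, 1.17 and 0.84. Of 29 chemokine genes 22 (75.9%) were above it, near the 77.9% of all genes, with Cxcl12, which holds stem and immune cells in place, at 11.22 ± 0.10. Of 41 collagen genes 28 (68.3%) were above background, somewhat below the share of all genes. Within them the interstitial Col3a1 and Col1a1 stood at 13.32 and 12.73 and the basement membrane Col4a1 at 11.81, and Col9a1 of cartilage at 1.17. Of 14 Sox factors 8 were above background, among them Sox7 at 9.64 ± 0.14, Sox18 at 9.57 ± 0.18 and Sox17 at 8.93 ± 0.21, which are known from endothelium.

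Spread between the 5 arrays fell as brightness rose. The SD of a gene had a median of 0.15 among genes above background and 0.887 among the rest. A wide spread, an SD of 0.5 or more, was found in 381 of the 11070 genes above background (3.44%), and an SD of 1 or more in 35. Of the 2903 genes between the background level and 7, 329 were wide (11.3%). The shares were 42 of 4262 (0.985%) between 7 and 9 and 10 of 3905 (0.256%) above 9. The count of wide genes therefore rests mainly on dim ones, and it was 85 with the background level at the 99th percentile of the receptor genes and 177 with Olr1 kept among them. At the other end 2834 genes had an SD of 0.1 or less.

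The 15 genes with the largest SD were Ino80b, Klk10, Gpc2, Grm8, Il6, Mt3, Gnal, Taco1, RT1-T24-3, Hes5, Aacs, S100a8, Msln, Reg3g and Pkmyt1. Of these, RT1-T24-3 and Reg3g had means of 9.36 and 7.75 and S100a8 6.41, while the others lay at 5.82 or lower. Ino80b, a chromatin remodeling subunit, read 6.46, 6.74, 2.63, 6.99 and 6.22, so that 1 array fell below background. Klk10, a secreted protease, read 6.46, 5.59, 4.99, 1.86 and 5.27, also with 1 array below it, while Grm8, a glutamate receptor, was below it on 3 arrays with 6.70, 3.44, 3.34, 4.82 and 6.33. Leaving out a single array put the mean of Klk10, Gpc2, Grm8, Il6, Mt3, Taco1, Aacs or Msln below the background level, depending on the array.

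**Figure D4:**
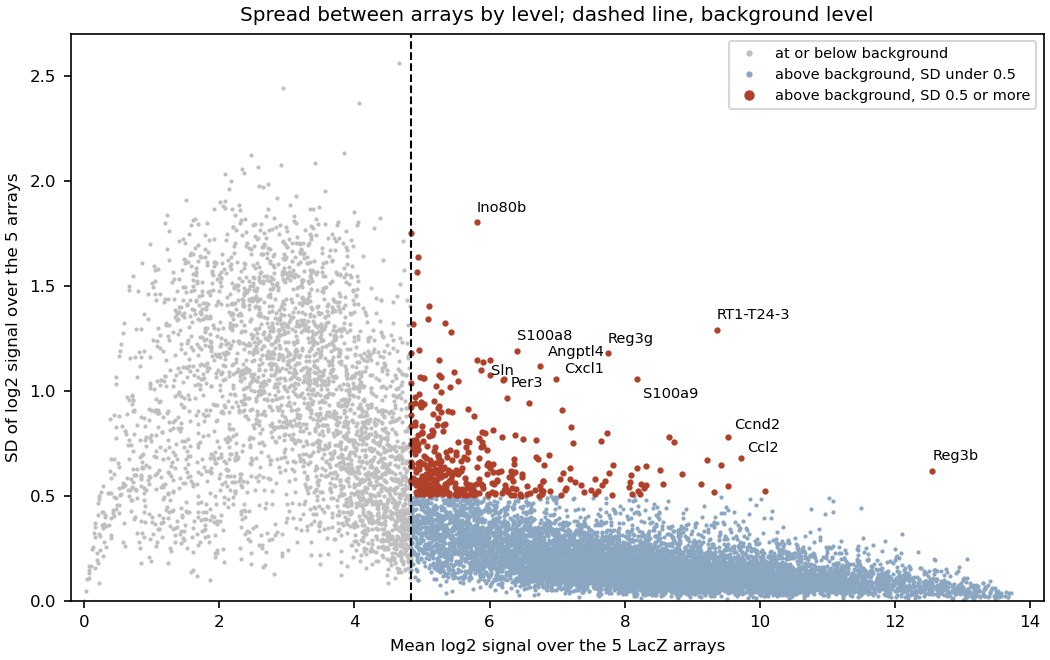
SD over the 5 LacZ arrays of each gene against its mean log2 signal, with genes at or below background in grey, genes above it in blue and those above it with an SD of 0.5 or more in red. Spread falls as signal rises, and only 10 genes above a level of 9 had an SD of 0.5 or more.

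Among the gene classes, acute inflammation held the most wide members. Of the 21 inflammation and chemokine genes above background 13 had an SD of 0.5 or more, where the share over all genes above background was 3.44%. The members had been listed for this class with earlier results known, so the count is a description. S100a9, a calcium-binding protein of neutrophils and monocytes, read 9.00, 8.43, 7.19, 6.96 and 9.30 on LacZ arrays 1 to 5, and its partner S100a8 read 7.41, 6.83, 5.53, 4.81 and 7.49. Both were low on arrays 3 and 4.

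Ccl2, the main monocyte chemokine, read 10.23, 9.93, 9.03, 8.96 and 10.41. Ccl7, a related monocyte chemokine, read 9.31, 9.19, 7.77, 8.05 and 9.33. The neutrophil chemokine Cxcl1 read 7.39, 6.69, 6.12, 6.07 and 8.61, and the cytokine Il6 read 5.58, 4.61, 4.32, 3.69 and 7.30, below background on 3 arrays, and its mean lay below background without array 5. All 4 were lowest on arrays 3 and 4 and highest on array 5, as S100a9 and S100a8 were.

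The neutrophil and the macrophage and monocyte markers were, by their mean deviations, also low on arrays 3 and 4. The B and plasma cell markers were low on arrays 3 and 4 as well, and on array 5. The T and NK cell and the mast cell lists took other orders. The mean deviation from each gene's own mean, over the 4 neutrophil markers above background, was 0.507, 0.288, -0.682, -0.953 and 0.84 on LacZ arrays 1 to 5. S100a8 and S100a9 are 2 of those 4 genes, so this list is not separate from the values above. Over the 15 macrophage and monocyte markers the deviations were 0.052, 0.116, -0.189, -0.061 and 0.082. The 15 T and NK cell markers gave -0.242, 0.331, -0.033, -0.017 and -0.039. The 4 B and plasma cell markers above background gave 0.278, 0.023, -0.138, -0.090 and -0.073. The 5 such mast cell markers gave 0.114, -0.107, 0.139, -0.292 and 0.146. Over the cardiomyocyte markers the deviations stayed within 0.033 of 0, but these markers lie at the top of the scale, where signals flatten. The defining neutrophil genes Camp, Mmp8 and Cxcr2 had means of 1.68, 2.37 and 2.65, all below background. The GAPDH 3' to 5' ratio was 2.11, 1.55, 1.60, 1.29 and 2.46 on arrays 1 to 5. That of beta-actin was 2.62, 2.22, 2.30, 2.64 and 2.97. The part of immune cells or RNA quality in this pattern was not tested.

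Reg3b and Reg3g of the Reg family, C-type lectins secreted by injured or inflamed tissue, spread in another order. Reg3b read 12.85, 13.12, 12.51, 12.75 and 11.51, so it was bright on each array and lowest on array 5. Reg3g read 8.69, 9.13, 6.88, 7.71 and 6.33, also highest on array 2 and lowest on array 5. Their close relative Reg3a was below background at 0.99 ± 0.79, so the family was not bright as a whole. The promoter of Reg3g is among the sequences printed above.

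RT1-T24-3, a gene of the rat's class I histocompatibility region, read 10.02, 10.41, 7.93, 10.46 and 8.00. Arrays 3 and 5 were low and the other 3 high, with none between 8.00 and 10.02. Reg3b and Reg3g were likewise lowest on arrays 3 and 5, while the chemokine genes above were highest on array 5. Class I genes are near-identical to one another and vary between animals of an outbred stock such as Sprague-Dawley, and the probe set may read several of them, so this value is uncertain. B2m, their common light chain, was at 13.48 ± 0.01. Besides RT1-T24-3, the wide genes with a mean above 9 were Ccnd2, Ccl2, Eif4g1, Echdc3, Reg3b, Cxcl10, Gnb2, Mx2 and Sfrp2, which are named after their values were seen.

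Eif4g1, a scaffold of translation initiation, read 8.94, 9.45, 9.34, 10.10 and 8.28, Ccnd2, a cyclin, 8.92, 10.45, 9.37, 10.22 and 8.68, and Gnb2, a G protein subunit, 9.37, 9.70, 9.50, 10.29 and 8.78. All 3 were lowest on array 5, and Eif4g1 and Gnb2 were highest on array 4, the arrays with the highest and the lowest GAPDH 3' to 5' ratio. The beta-actin ratio was also highest on array 5, at 2.97, but array 4, at 2.64, was not its lowest. Eif4g1 was wide on its brightest probe set, while its next brightest averaged 5.93 with an SD of 0.23. Of the 381 wide genes 31 (8.14%) were highest on array 4 and lowest on array 5, and of all 11070 genes above background 807 (7.29%) were. The part of RNA quality in these genes was not tested.

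Atrial genes gave a further order. Sln read 4.65, 4.83, 7.07, 6.02 and 6.76, Myl7 read 6.18, 5.73, 6.62, 8.17 and 6.19, and Myl4 read 7.42, 6.51, 8.41, 6.67 and 7.13. They did not share their highest array: it was array 3 for Sln and Myl4 and array 4 for Myl7. Myl7 and Myl4 were lowest on array 2 and Sln on array 1. Whether a piece of atrium lay in some samples was not tested.

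**Figure D5:**
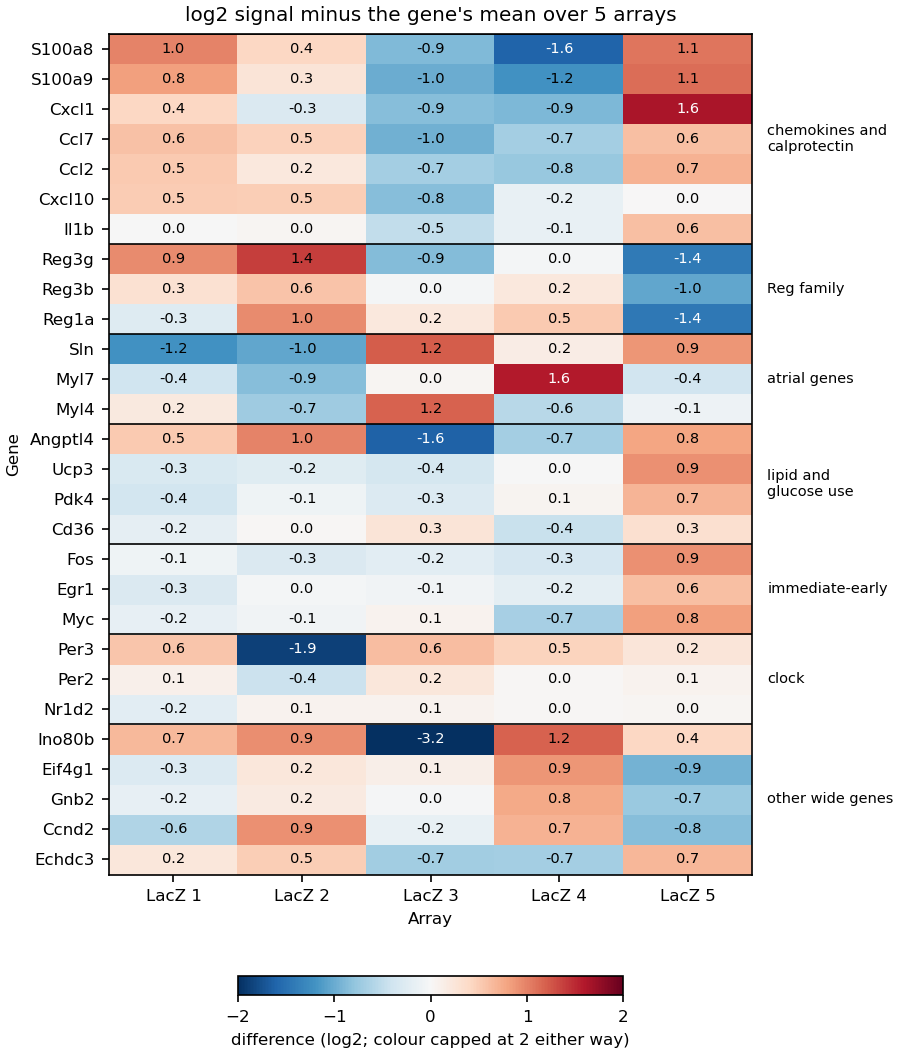
Log2 deviation from each gene's mean on LacZ arrays 1 to 5 for groups of genes with a wide spread, with the colour scale capped at 2 in each direction. The chemokine and calprotectin genes are low on arrays 3 and 4, and Reg3b and Reg3g are lowest on array 5.

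Metabolic genes were steady, with few exceptions. Angptl4, an inhibitor of lipoprotein lipase that fatty acids and fasting induce, read 7.27, 7.74, 5.12, 6.06 and 7.54 and is named after its values were seen. Ucp3, a mitochondrial carrier protein, read 7.20, 7.27, 7.15, 7.50 and 8.42, and Pdk4 read 10.58, 10.86, 10.68, 11.02 and 11.63. Ucp3 and Pdk4, both known as targets of fatty acid signaling, were highest on array 5, while Angptl4 was highest on array 2.

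The 10 steadiest genes above background were Pdha1, Psme1, Rps3a, B2m, Mmgt1, Upp1, Psmc2, Dnaja2, Ppp2r3a and Pgk1. Pdha1, the catalytic subunit of pyruvate dehydrogenase, had an SD of 0.004 around 13.01. Most of them are bright genes, where signals flatten, but Mmgt1 at 9.51 ± 0.01 and Upp1, a uridine phosphorylase, at 8.24 ± 0.01 lay in the middle of the scale. With 14217 genes and 5 arrays, some small SDs arise among many genes, and no gene is put forward as a reference from them.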

How the data were processed

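The measurements are the deposited probe set intensities of the 5 LacZ arrays, on a linear scale, which the authors made with GCOS, a program of Affymetrix, per the submitters' processing notes. Its version, the way probes were summarised and any scaling are not stated in the sources used here. RNA was extracted with guanidine thiocyanate and caesium chloride, per the labels' protocols. From the deposited intensities, signals under 1 were set to 1, log2 was taken, and the 31042 probe sets that are not among the 57 array controls were quantile normalized over the 5 arrays. Probe sets were named by the platform annotation: 20826 had 1 gene, 436 several and 9780 none, and 20758 of the first matched a gene ID of the RefSeq table (GRCr8), which also gave the promoters. The probe set with the highest mean stood for its gene.

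The background level is the 95th percentile of 41 chemosensory receptor genes, and a wide spread is an SD of at least 0.5. No groups were compared, no genes were tested and there are no p-values. Dixon's outlier limit was used only to pick values for the closing section. The number of arrays limits the precision. Named genes are the 20 brightest, for each class the 2 brightest members and the member above background with the largest SD, members of isoform families, the 15 widest and 10 steadiest genes, the brightest other-organ and marker genes, Gata4 and the sex-linked genes. Other names, among them the dimmest or below-background members of classes and the wide genes not in the 15, were chosen after their values were seen. The members and lists were chosen with earlier results of these data known.

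Alternatives were no normalization, median centring, normalization over all 10 arrays, 16 added before log2, the mean of a gene's probe sets, other background percentiles, an SD of 1, and leaving out each array. The settings with Olr1 kept among the receptor genes and with Olr59 left out were added after seeing the data. The scripts, tested on simulated data, used Python 3.11.15, numpy 2.4.6, pandas 2.3.3 and matplotlib 3.10.9.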

Additional observations from a re-analysis of the deposited data

Results flagged for a closer look

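In 17 of 226 sets of 5 values examined (named genes, class scores and array measures), 1 array stood apart from the other 4 by more than Dixon's 95% limit. Chance flags about 1 in 20 sets where sets are not chosen by their spread. Many of these were, since the widest genes and the widest member of each class are among them, so the count of 17 is not read against that rate. Among the dim genes, Per3 read 4.33 on LacZ array 2 against 6.43 to 6.81 on the others, Ino80b 2.63 on array 3, Gpc2 2.05 and Msln 2.78 on array 5, and Gnal 3.04 on array 4. In each of these a value below background stood against 4 above it.

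Of the brighter genes, Ucp3 was high on array 5 at 8.42 against 7.15 to 7.50, Hspb3, a small heat shock protein, was low on array 4 at 10.20, Nr1d2 was low on array 1 at 10.55 and Cpt1b was low on array 1 at 12.45. Near the top of the scale the gaps were small: Idh2 13.65 on array 5, Tnnt2 13.70 and Col3a1 13.44 on array 2, Pln 13.59 on array 3 and Pdha1 13.002 on array 4. The mean deviation of the clock genes was -0.19 on array 2, where Per3 was far below its own mean, and that of the mitochondria-encoded genes was 0.043 on array 4. The trimmed mean signal of 314 on array 2 stood apart before normalization.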

How the results depend on the processing

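Of the 100 brightest genes, 99 remained without normalization and with median centring, 100 with normalization over all 10 arrays or with 16 added, 97 to 99 with an array left out and 81 with the mean of a gene's probe sets. The count above background was 11066, 11066, 11073, 11112, 10996 to 11141 and 10586 in the same order, and 11507 and 9245 with the 90th and 99th percentile of the receptor genes. Genes at or below the level numbered 3076 to 3221 with an array left out and 4972 with the 99th percentile. The count of wide genes was the least stable. From 381 it went to 160 with 16 added before log2, 669 with the mean of probe sets, 586 and 85 with the 90th and 99th percentile, 177 with Olr1 kept, 35 with an SD of at least 1, and 340 to 422 with an array left out. With Olr59 left out it was 416. Of the levels of named genes, 157 of 2030 values moved by more than their SD, and 108 of 930 class medians did. No named gene changed side of the background level without normalization, with median centring or with normalization over all 10 arrays. With 16 added Gjb2 did, and with the mean of probe sets Per3, Tbx3 and Grm8 did. Leaving out an array moved 3 to 6 of the 203 named genes to the other side: Gjb2, Klk10, Gpc2, Grm8, Taco1 and Msln without array 1, Gjb2, Klk10, Gpc2, Aacs and Msln without array 2, Cntn2, Klk10, Gpc2 and Msln without array 3, Taco1, Aacs and Msln without array 4, and Il6, Klk10, Grm8, Mt3 and Taco1 without array 5. The mean of probe sets lowered the median gene by 0.68. No paired analysis was possible because the result comes from no test and no groups were compared. Signal close to background limits every count at the dim end.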
